A study of Zea mays subsp. mays with 2 samples.

Results

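Some positions of the maize genome are listed several times in the deposited expression tables, each time on a row with its own expression value. The rows carry no names, and each is taken here as a gene model reported under that coordinate. These shared coordinates are described here. They were chosen by position alone, as all rows on chromosomes 1 to 10 with a span (end minus start) of 300 bp or more whose coordinate stood at least 2 times in the table. This gave 4600 coordinates with 9631 rows, out of 39055 coordinates with 44086 rows of that span on those chromosomes and 45157 rows in all. The smallest shared span was 301 bp, 0 shared coordinates on these chromosomes were shorter, and 6 further shared rows lay outside chromosomes 1 to 10 and were not used.

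The samples were RNA from endosperm of Zea mays subsp. mays at 15 days after pollination, taken from dek2 mutant and from wild-type (WT) kernels. Each genotype had 1 deposited library. The design text mentions triplicates, and the labels leave unsaid if each table stands for 1 replicate, pooled replicates or their mean. They also name no genetic background, no dek2 allele and no way of picking mutant kernels. All differences below are therefore between 2 libraries, with no replicate error and no test. Expression is given in FPKM (fragments normalised to transcript length and to the mapped total), and the sequencing depth behind a value is unknown. The tables hold no gene names, and 0 of the 4600 starts equalled a gene start in the RefSeq gene table used here, so coordinates are given by position as deposited, without a gene. For the same reason neither the dek2 transcript nor endosperm markers could be used to check the labels.

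Endosperm is the nutritive tissue of the cereal kernel and stores starch and protein. Its most abundant transcripts encode storage proteins, the zeins of maize, and several zein families are tandem arrays of closely alike genes. Mutants named dek form defective kernels. Dek2 is known to encode a mitochondrial member of the pentatricopeptide repeat family, whose proteins bind and process RNA of plant organelles. A genome position can carry several gene models where genes overlap, lie inside one another or on opposite strands, or where annotation pipelines disagree, and reads from the overlap then have to be divided among the models. The sum over a coordinate depends less on that division than the value of each model does, but it adds FPKM of models of unknown length and is not a fragment number.

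Most shared coordinates held a pair of models. There were 4225 coordinates with 2 models, 331 with 3, 35 with 4, 8 with 5 and 1 with 8. Distinct coordinates hardly overlapped, since 5 of 39045 neighbouring pairs did. Coordinates with several models spanned a median of 4225 bp, against 2457 bp for those with 1 model, and the median grew with the number of models, from 4003 bp at 2 models to 7311 bp at 3, 13947 bp at 4 and 38949 bp at 5. They made up between 10.1% of the coordinates on chromosome 10 and 12.3% on chromosome 7.

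The models of a coordinate rarely stood together in the tables. In 328 coordinates (7.13%) a pair of models stood in adjacent rows, and the median of the smallest distance between models was 14129 rows. Shared rows were unevenly placed. They made up 39.2% of the last 5157 rows, which follow row 40000, 18.7% of the 2500 rows before these, and 19.0% of all earlier rows. The sources used here do not explain the row order, and the bounds of these stretches were set after the values were seen.

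Shared coordinates were expressed more often than the others. In dek2, 85.2% of them summed to 1 FPKM or more and 51.3% to 10 FPKM or more, against 56.4% and 27.0% of the coordinates with 1 model. In WT the shares were 81.6% and 43.3%, against 51.7% and 20.5%. The median sum was 10.9 FPKM in dek2 and 7.51 FPKM in WT, against 1.73 FPKM in dek2 and 1.15 FPKM in WT at coordinates with 1 model. Adding models up accounts for a part of this by construction. The most abundant model of a shared coordinate alone had a median of 8.30 FPKM in dek2 and 5.86 FPKM in WT. Being the highest of several rows, it is also raised by construction. At the 4225 coordinates with 2 models, the model listed first had a median of 2.80 FPKM in dek2 and 1.88 FPKM in WT. The model listed second had a median of 3.21 FPKM in dek2 and 2.34 FPKM in WT. The deposited value 1e-05, whose meaning the tables do not state, was read as no value and counted as 0. No value in any model was found at 58 shared coordinates (1.26%) in dek2 and 83 (1.80%) in WT, and at 0 in both. Among coordinates with 1 model these shares were 8.29% in dek2 and 13.8% in WT.

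Their part of the whole expression signal was smaller in dek2. The 4600 coordinates summed to 256826 FPKM in dek2, 23.9% of that library, and to 398952 FPKM in WT, 35.0%. The 10 most abundant shared coordinates held 18.7% of the shared sum in dek2 and 61.7% in WT. Without the 10 most abundant coordinates of each library, shared or not, the shared ones made up 22.3% of the remaining FPKM in dek2 and 25.1% in WT. When the 10 most abundant of the shared set and of the 1-model set were both left out, a choice made after the values were seen, the shares were 21.9% in dek2 and 22.7% in WT. The shared coordinates of chromosome 4 held 27610 FPKM in dek2 and 191213 FPKM in WT. On chromosome 2 the sums were 24382 FPKM in dek2 and 81319 FPKM in WT, of which 1 coordinate gave 2857 FPKM in dek2 and 62243 FPKM in WT. On each of the other chromosomes the deposited sum was higher in dek2, but with dek2 scaled as described next it was lower in dek2 on chromosomes 1, 6 and 9.

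Differences were measured as log2((dek2 + 1)/(WT + 1)) of the sums, after dek2 was divided by 1.503, the median dek2/WT ratio of the 22250 rows that reached 1 FPKM in both libraries. To be counted, a coordinate needed 1 FPKM in either library and a 2-fold ratio, a limit on size alone. Of 4110 shared coordinates at that level, 466 (11.3%) lay at or above 2-fold in favour of dek2 and 537 (13.1%) lay 2-fold or more below WT. Over all 24873 coordinates counted the same way, 12.0% were higher and 11.1% were lower, so both shares are near that background. On the deposited values without scaling, 1084 shared coordinates were higher and 318 lower, which turns the direction.

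**Figure D1:**
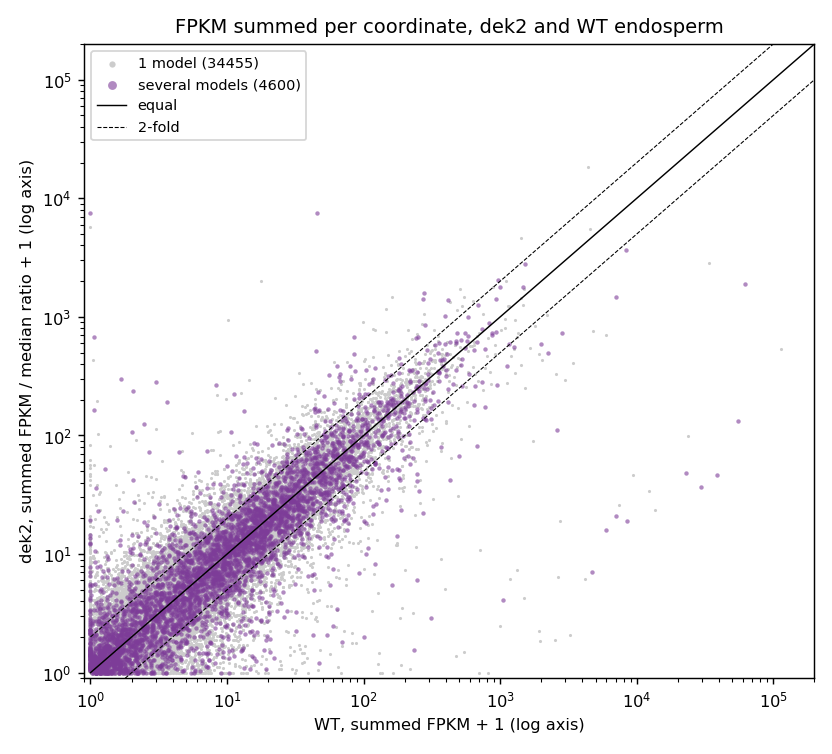
FPKM summed per coordinate in dek2 (y axis, divided by the median ratio, plus 1) and in WT (x axis, plus 1), both on log axes, for the 4600 coordinates with several models (purple) and the 34455 with 1 model (grey). Most points lie within the dashed 2-fold lines. The purple points far below them include the 8 lowest ratios, with 4722 to 55278 FPKM in WT.

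The middle of the distribution was slightly lower for shared coordinates. Their median log2 ratio was -0.016, with the middle 50% between -0.57 and 0.52, while coordinates with 1 model had a median of 0.084, between -0.47 and 0.61. The difference of the medians was -0.10 with the median scaling, -0.078 without scaling and -0.10 under a scaling to equal totals that left out the top 100 rows per library. With 1 library per genotype this difference has no test. The sign of the shared median itself follows the scaling, with 0.49 on the deposited values. Coordinates with 2 models had a median of -0.022 and those with 3 models 0.039, and the 10 chromosome medians lay between -0.083 and 0.076.

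Short shared coordinates differed between the libraries more often than long ones. With a span under 1500 bp, 18.9% of 439 expressed shared coordinates were higher in dek2 by 2-fold or more and 20.7% were lower. At 20000 bp or more, 7.14% of 266 were higher and 10.5% were lower. Coordinates with 1 model followed the same order, with 17.5% higher and 18.2% lower under 1500 bp and 5.83% higher and 7.40% lower at 20000 bp or more. Between 1500 and 3000 bp the sets stood apart most in the lower direction, with 16.9% of 874 shared coordinates lower in dek2, against 10.4% of 4887 with 1 model.

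Differences were most frequent among the most abundant coordinates. At a mean of 1000 FPKM or more over both scaled libraries, 3 of 22 shared coordinates were 2-fold or more higher in dek2, 15 (68.2%) were lower by as much, and the median log2 ratio was -2.22. Of the 39 coordinates with 1 model in this class, 7 were higher, 22 (56.4%) were lower, and the median was -1.59. In the class of 100 to 1000 FPKM, 52 of 297 shared coordinates (17.5%) were higher and 39 (13.1%) lower, near the 14.5% higher and 13.2% lower of 691 coordinates with 1 model. From 10 to 100 FPKM, 9.53% of 1711 shared coordinates were higher and 10.99% lower, beside 11.9% higher and 9.28% lower with 1 model. From 1 to 10 FPKM, 12.2% of 1800 shared coordinates were higher and 14.8% lower, beside 13.0% higher and 11.4% lower with 1 model.

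**Figure D2:**
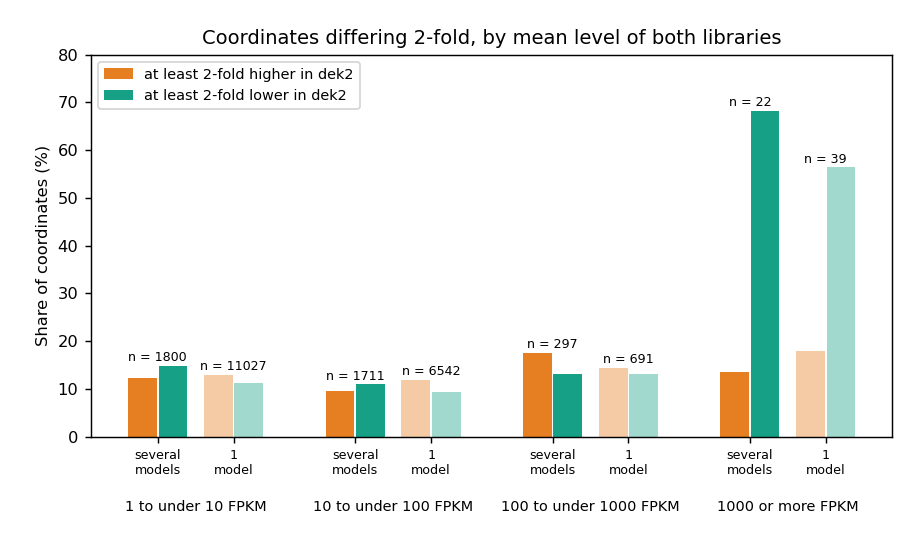
Share of coordinates (%, y axis) at least 2-fold higher (orange) or lower (green) in dek2, by the mean FPKM of both scaled libraries (x axis), for coordinates with several models (full colour) and with 1 model (pale). The bars stay under 20% in the 3 lower classes, and at 1000 FPKM or more 68.2% of shared coordinates were lower.

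The most abundant shared coordinates of WT were all lower in dek2. All 10 of the highest WT sums were at least 2-fold lower, and 7 of them lay on chromosome 4. Of the 10 highest dek2 sums, 4 were higher in dek2 by 2-fold or more and 3 were lower, and 3 coordinates belonged to both sets. Picking by the level in 1 library favours coordinates that are lower in the other, which is why both sets are given.

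The first in WT, on chromosome 2 from 183991960 to 183993036, had 2 models. They had 346 and 2511 FPKM in dek2, compared with 5304 and 56939 FPKM in WT. Both models were lower, with log2 ratios of -4.52 and -5.09, and the larger model held 87.9% of the sum in dek2 and 91.5% in WT.

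The 8 lowest ratios of the 2503 shared coordinates at 10 FPKM or more in a library and with a value in both were all on chromosome 4. These 8 coordinates together summed to 478 FPKM in dek2, 0.186% of the shared sum, and to 173061 FPKM in WT, 43.4% of it. Their log2 ratios lay between -9.71 and -8.40. Of the 8, 5 started between 5098146 and 5548769, 1 at 21334900 and 2 at 29951760 and 29963320.

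The coordinate with 8 models, from 5098146 to 5142076, belongs to them, and its models are described here. Its sum was 53.5 FPKM in dek2 and 29759 FPKM in WT, a log2 ratio of -9.67. Its leading model had 34.0 FPKM in dek2 and 19194 FPKM in WT. The next had 8.13 FPKM in dek2 and 4326 FPKM in WT. In all, 6 models had 919 FPKM or more in WT, and their log2 ratios lay between -9.74 and -8.75. The remaining pair was hardly expressed in WT, with 1.43 FPKM in dek2 against 3.03 FPKM in WT for one model and 0.109 FPKM in dek2 against no value in WT for the other. The leading model held 63.5% of the sum in dek2 and 64.5% in WT, beside a scaled sum that was 836-fold lower in dek2.

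In other coordinates of this group 1 model carried almost all of the sum. From 29951760 to 29952727 the models had 0.0889 and 68.0 FPKM in dek2, compared with 65.8 and 38818 FPKM in WT. From 5535485 to 5536705 they had 197 and 0.107 FPKM in dek2, compared with 55277 and 0.391 FPKM in WT. The leading model held 99.9% of the dek2 sum in both. At the coordinate from 5548769 to 5561370 the models were more even, with 14.1 and 8.57 FPKM in dek2, compared with 3434 and 2500 FPKM in WT. From 21334900 to 21335979 the values were 60.6 and 9.96 FPKM in dek2, compared with 18353 and 4645 FPKM in WT. In these last coordinates both models were abundant in WT and both were lower in dek2. Near-identical genes can share reads, and whether the models here have such copies could not be checked, so values of single models are uncertain.

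The 8 highest ratios among the same 2503 coordinates, which had a value in both libraries, were spread over chromosomes 1, 3, 4, 8, 9 and 10. At 5 of them a model at 10 FPKM or more in dek2 had no value in WT. A coordinate on chromosome 7 without a value in WT, described below, had a higher log2 ratio of 12.88 and was not ranked here. The highest of those ranked was on chromosome 1 from 81450789 to 81452830, with a log2 ratio of 9.31 for the sums. Its models had 693 and 322 FPKM in dek2, compared with no value and 0.0662 FPKM in WT. On chromosome 10 from 90214396 to 90215794 they had 4.89 and 351 FPKM in dek2, compared with 0.137 and 0.924 FPKM in WT, a log2 ratio of 6.85. On chromosome 3 from 215867039 to 215868885 they had 56.4 and 368 FPKM in dek2, compared with 0.170 and 1.87 FPKM in WT, a log2 ratio of 6.54. In these last 2 coordinates each model had a value in both libraries and was higher in dek2. On chromosome 9 from 145596123 to 145598153 the leading model had 158 FPKM in dek2 and 1.01 FPKM in WT, and the other had 0.772 FPKM in dek2 and no value in WT.

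**Figure D3:**
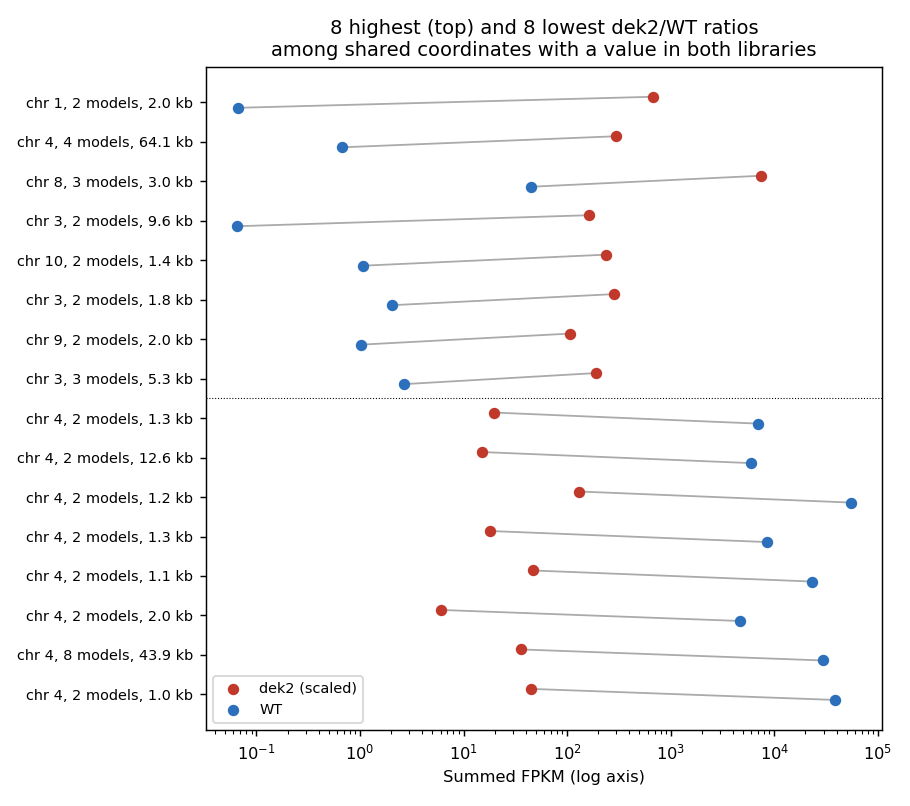
Summed FPKM (log axis) in dek2 (red, divided by the median ratio) and in WT (blue) at the shared coordinates with the 8 highest and the 8 lowest ratios, labelled by chromosome, number of models and span. The ranking covers coordinates at 10 FPKM or more in a library and with a value in both. The 8 lowest all lie on chromosome 4 and had between 4722 and 55278 FPKM in WT.

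At 4 of the 8 highest, nearly all of the dek2 sum came from 1 model without a value in WT. On chromosome 8 from 125066159 to 125069152 the first 2 models had 16.7 and 33.1 FPKM in dek2, compared with 8.42 and 36.2 FPKM in WT, and the last had 11240 FPKM in dek2 and no value in WT. The sum gave a log2 ratio of 7.36, and without that last model the ratio was -0.42. On chromosome 3 from 205844602 to 205849883, the first model had 3.41 FPKM in dek2 and 2.65 FPKM in WT, and the others had 268 and 13.2 FPKM in dek2 and no value in WT. The log2 ratio of 5.70 for the sums became -0.16 without those others. On chromosome 3 from 205916617 to 205926201 the ratio of 7.28 became 0.29, and on chromosome 4 from 238412079 to 238476138 the ratio of 7.48 became 1.57, since its next model had 5.70 FPKM in dek2 and 0.614 FPKM in WT. These alternatives were chosen after the values were seen.

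Such models, at 10 FPKM or more in 1 library and with no value in the other, were found 82 times at 80 shared coordinates, 59 with a value in dek2 only and 23 with a value in WT only. Of 3213 shared rows that reached 10 FPKM in a library, 1.84% were of the dek2-only kind and 0.716% of the WT-only kind. Over all 13067 rows at that level these shares were 0.758% and 0.298%, and over the 9854 rows with a coordinate of their own they were 0.406% and 0.162%. Their levels had a median of 21.1 FPKM and reached 11240 FPKM in dek2 and 304 FPKM in WT. For 60 of the 82 (73.2%), the other models of the coordinate summed to 1 FPKM or more in the library where the model had no value. The companion models at all 80 coordinates included 85 expressed at 1 FPKM or above, around a median log2 ratio of 0.065. Of these 85, 17 were 2-fold or more higher in dek2 and 10 lower. Over all 6749 shared rows at 1 FPKM or above, 891 (13.2%) were higher and 915 (13.6%) lower by as much.

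Their place in the tables was uneven. Of the 82, 58 stood in the last 5157 rows, 11 in the 2500 rows before these and 13 in all earlier rows. As a share of shared rows at 10 FPKM or more this was 7.75%, 7.38% and 0.561% in the same order of stretches. Rows with their own coordinate gave 1.25%, 6.42% and 0.354%. The length of a model is not in the tables, and very short models reach high FPKM from few fragments. Its part in these values was not tested.

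Models present in WT only reached lower levels, and the 2 most abundant, chosen after their values were seen, are given here. On chromosome 5 from 3667094 to 3677998, 1 model had no value in dek2 and 304 FPKM in WT, beside one with 2.88 FPKM in dek2 and 5.48 FPKM in WT. On chromosome 6 from 145511298 to 145516033, 1 model had no value in dek2 and 292 FPKM in WT, beside one with 118 FPKM in dek2 and 76.4 FPKM in WT. The sums at this coordinate of chromosome 6 gave a log2 ratio of -2.21, and without the model present in WT only it was 0.043.

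A shared coordinate without any value in a library was rarely abundant in the other. In WT 83 shared coordinates had no value, and 7 of them reached 10 FPKM in dek2. In dek2 58 had no value, and 0 of them reached 10 FPKM in WT, where the highest, on chromosome 10 from 39922728 to 39924376, had 6.02 and 3.26 FPKM. The same counts for coordinates with 1 model are not given here, so nothing particular to shared coordinates is read from them. A coordinate on chromosome 7 stood far above all others without a value in WT. There, from 120233939 to 120236057, its 2 models had 1774 and 9531 FPKM in dek2 and no value in WT, while the next highest summed to 27.8 FPKM in dek2. At a distance of 25728 bp from it, a coordinate with 1 model had 50.1 FPKM in dek2 and 12296 FPKM in WT, which is a difference the other way. Among the shared coordinates named by rule that differed at least 8-fold, no other had a coordinate within 50000 bp at 100 FPKM or more that differed at least 8-fold the other way. Whether reads went to different places of this neighbourhood was not tested.

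Large differences were rare. At least 8-fold higher in dek2 were 36 shared coordinates (0.876%) and at least 8-fold lower were 54 (1.31%), with 0.623% higher and 0.844% lower over all coordinates. A model of the kind described above was found at 20 of the 36 and at 13 of the 54. Without those models, 18 coordinates were at least 8-fold higher and 41 lower, all of them among the 36 and the 54. Such a model is itself a large difference, so leaving it out tends to lower these counts by construction. With a value for every model in both libraries, 9 were at least 8-fold higher and 28 lower.

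Within a coordinate, 1 model usually led. At sums of 1 FPKM or more, the most abundant model held a median of 81.0% of the sum in dek2 (3918 coordinates, middle 50% from 63.4% to 95.1%) and 83.1% in WT (3753 coordinates, 67.6% to 95.7%). It held 95% or more in 25.3% of coordinates in dek2 and 27.2% in WT, and under 60% in 19.1% in dek2 and 14.8% in WT. With 2 models the median was 82.0% in dek2 and 84.4% in WT, and with 3 models 67.1% in dek2 and 70.2% in WT. All models had a value in 93.4% of these coordinates in dek2 and in 87.5% in WT. Where every model had a value in both libraries, the medians were 76.4% in dek2 and 79.5% in WT.

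**Figure D4:**
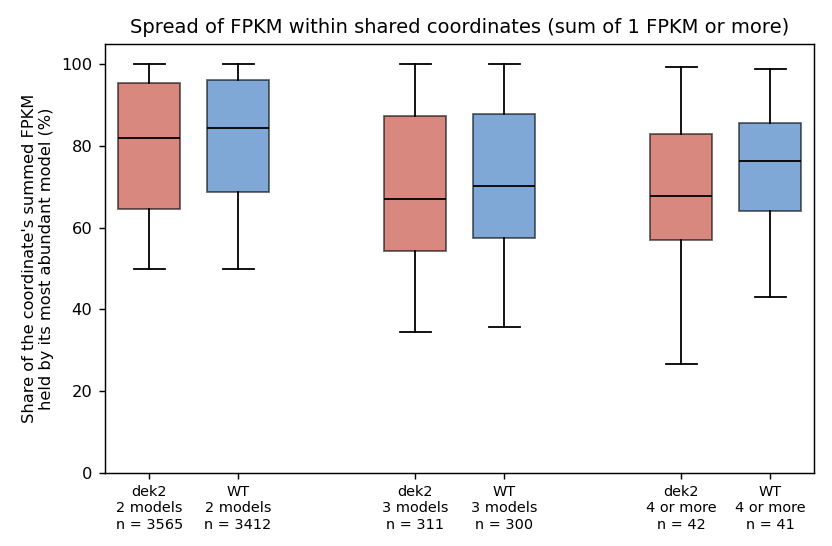
Share of the summed FPKM held by the most abundant model (%, y axis) at shared coordinates with a sum of 1 FPKM or more, in dek2 (red) and WT (blue), by number of models. Boxes show the middle 50% with the median, and whiskers reach the farthest value within 1.5 times the box length. The median is 82.0% in dek2 and 84.4% in WT with 2 models and lower with 3 models, and 2 models cannot give less than 50%.

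The leading model was mostly the same in both libraries. Models were paired by their place in the tables, which assumes the same order of models in both. Among 1709 coordinates at a sum of 10 FPKM or more in both, scaled, the same model led in 1473 (86.2%) and a different one in 236 (13.8%). The largest difference in a model's share had a median of 6.52 percentage points and was under 10 points in 1055 coordinates (61.7%) and 50 points or more in 22. When shares were sorted within each library, so that no order of models was assumed, the median was 5.65 points.

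Of the 8 largest differences in share, 7 came from a model without a value in 1 library. The exception lay on chromosome 1 from 644607 to 652202. There the models had 17.3 and 1.61 FPKM in dek2, compared with 5.96 and 40.7 FPKM in WT, so that the first model held 91.5% of the sum in dek2 and 12.8% in WT. On chromosome 1 from 88349117 to 88351781, the first 2 of 3 models had 27.9 and 28.1 FPKM in dek2, compared with 79.0 and 69.2 FPKM in WT, and the last had 190 FPKM in dek2 and no value in WT. The sums of that coordinate differed little, with a log2 ratio of 0.14, while without the last model it was -1.96.

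At coordinates with 2 models, the models tended to differ in the same direction, but not closely. Both models reached 1 FPKM in a library at 2287 coordinates. Both were at least 2-fold higher in dek2 at 103 of these, both were lower at 128, and 1 was higher and the other lower at 10. At 405 only 1 model was higher, at 370 only 1 was lower, and at 1271 neither differed 2-fold. The log2 ratios of the models had a Pearson r of 0.52 and a Spearman rho of 0.41 over the 2287 coordinates. Over 20753 pairs of coordinates with 1 model these were 0.086 and 0.037. Each such pair joined a 1-model coordinate at 1 FPKM or more in a library to the next one on its chromosome. Shared coordinates and those below that level were skipped, so the members of a pair need not be direct neighbours. Among coordinates with a value for both models in both libraries (2075), r was 0.57 and rho 0.40. These are descriptions across positions within the same pair of libraries, and models of a coordinate can share fragments. The median absolute difference between the models' log2 ratios was 0.73, close to the 0.79 within the pairs of 1-model coordinates.

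**Figure D5:**
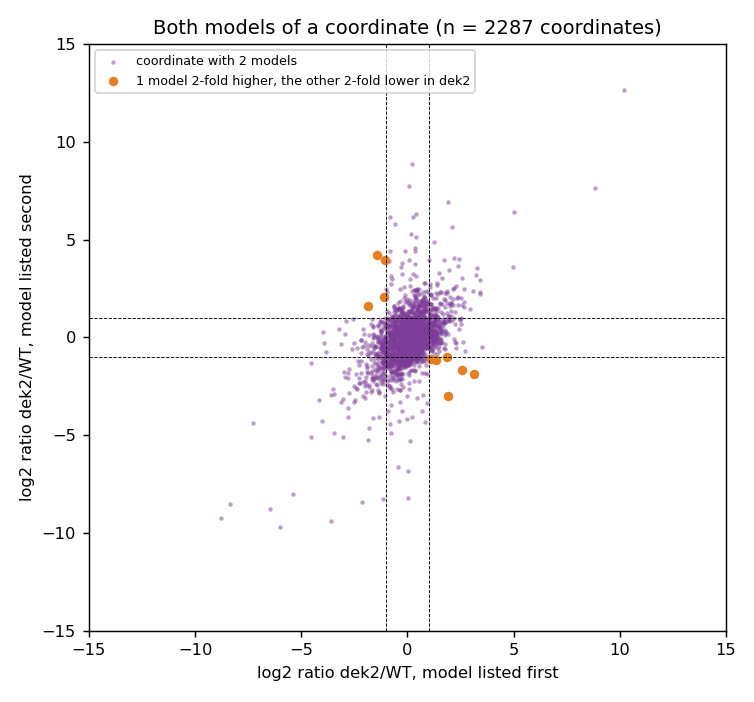
Log2 ratio dek2/WT of the model listed second (y axis) against that of the model listed first (x axis) at 2287 coordinates with 2 models, each at 1 FPKM or more in a library. Dashed lines mark 2-fold, and the 10 orange points are coordinates where 1 model was at least 2-fold higher and the other at least 2-fold lower in dek2.

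Of the 10 coordinates with opposite differences, which were named after their values were seen, 3 had a value for both models in both libraries. The clearest by level lay on chromosome 1 from 300067859 to 300072489. Its first model had 279 FPKM in dek2 and 48.7 FPKM in WT, a log2 ratio of 1.91, and its second had 19.8 FPKM in dek2 and 113 FPKM in WT, a log2 ratio of -3.01. On chromosome 10 from 76237665 to 76241531 the models had 13.6 and 12.0 FPKM in dek2, compared with 3.62 and 18.4 FPKM in WT, with log2 ratios of 1.12 and -1.11.

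Of the 8 coordinates with 5 models, the 4 with the highest FPKM summed over both libraries are given. On chromosome 5 from 33309449 to 33441145, 5 models had between 2.34 and 51.3 FPKM in dek2 and between 4.01 and 107 FPKM in WT, and the sums of 97.7 FPKM in dek2 and 149 FPKM in WT gave a log2 ratio of -1.18. On chromosome 2 from 196700575 to 196747432, 2 of 5 models had 36.1 and 47.6 FPKM in dek2, compared with 21.9 and 25.8 FPKM in WT, and the sums gave 0.23. On chromosome 2 from 87516786 to 87545883 the sums of 72.2 FPKM in dek2 and 19.6 FPKM in WT gave 1.25, with all 5 models at a value in dek2 and 2 in WT. There the log2 ratio was 0.87 without the model at 17.2 FPKM in dek2 and no value in WT. On chromosome 3 from 136292386 to 136351651 the leading model had 41.7 FPKM in dek2 and 23.5 FPKM in WT.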

How the data were processed

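RNA-seq values of 2 samples were used, dek2 and WT endosperm at 15 days after pollination, 1 library each. The authors deposited 1 FPKM per row, per the file headers. Bowtie 0.12.2 is named in the submitters' processing notes, while the FPKM program, build and annotation were not given in the sources used here. The deposited value 1e-05 (3690 rows in dek2, 6118 in WT) was read as no value and counted as 0. The tables list the same coordinates in the same order, and rows were paired line by line. FPKM was summed per coordinate, dek2 was divided by 1.503 (0.59 on the log2 scale), and a pseudocount of 1 FPKM was used, which understates changes of low coordinates. Calls needed 1 FPKM or more in a library and 2-fold. With 1 library per genotype, no test, interval or p-value was computed. Computations used Python 3.11.15 and pandas 2.3.3 and were tested on simulated data. Coordinates named were the 10 highest sums per library and the 8 highest and 8 lowest ratios. Those ratios were ranked among coordinates at 10 FPKM or more in a library and with a value in both. Also named were the 5 highest sums without a value in the other library and the 5 with most models (ties by summed FPKM). The 8 largest differences in a model's share completed the list. The text gives the named coordinates that differ in kind. Members and rules were chosen with earlier results of these data known. Starts are printed as deposited, with no label on the counting base.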

Additional observations from a re-analysis of the deposited data

How the results depend on the processing

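No paired analysis was possible because each genotype had 1 library, and for the same reason no replicate could be left out. Without scaling between the libraries, 1084 shared coordinates were at least 2-fold and 63 at least 8-fold higher in dek2, 318 were at least 2-fold lower, and the median log2 ratio was 0.49, which turns its sign. A 3-fold threshold left 208 higher and 240 lower. With every model measured in both libraries, 264 were higher and 357 lower at 2-fold, 9 and 28 at 8-fold, and the most abundant model held a median of 76.4% in dek2 and 79.5% in WT. A pseudocount of 0.1 gave 114 higher and 144 lower at 8-fold. Without the 10 most abundant coordinates of each library the shares of FPKM were 22.3% in dek2 and 25.1% in WT. Without the 10 most abundant shared and the 10 most abundant 1-model coordinates they were 21.9% in dek2 and 22.7% in WT. Without the shared ones alone, which takes nothing from the 1-model coordinates, they were 20.3% in dek2 and 16.6% in WT. The last pair of removals was added after seeing the data. All alternatives for the 8-fold counts were chosen after seeing the data, as was the one that leaves out models at 10 FPKM or more in 1 library and without a value in the other. That one gave 18 at least 8-fold higher. It turned the sign of the ratio at 6 named coordinates, of which 4 had differed at least 2-fold, to -0.42 on chromosome 8 from 125066159, -0.16 on chromosome 3 from 205844602, -0.56 on chromosome 5 from 203990936 and 0.043 on chromosome 6 from 145511298. The 2-fold and 8-fold counts under all other alternatives stayed within 1.5 times, and the scaling and pseudocount alternatives changed no sign at the 45 named coordinates. Depth is unknown and limits what is said of low values.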
